A study of Mus musculus with 10 samples.

Results

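The nuclear genes for the proteins of the mitochondrial ribosome were examined in mouse abdominal aortic aneurysm (AAA). Members were all gene names on the array made of Mrpl or Mrps and a number, with or without a letter a to c. This gave 76 of the 35527 names on the array, 47 of the large subunit (Mrpl) and 29 of the small subunit (Mrps). They were read by 100 probes. All 76 were above background on all 10 arrays, so that none was lost to a filter on dim probes, which kept 22520 names in all.

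Male C57BL/6J mice aged 10 weeks and fed a normal diet were operated on, with the infrarenal aorta tied off and infused through a catheter for 5 min at 100 mmHg. In the 5 sham mice the fluid was saline, and in the 5 mice given porcine pancreatic elastase (PPE) it was saline with the type I enzyme at 1.5 U per mL. Aortae were taken 7 days later, and RNA from each was placed on an array of its own in the red dye beside a universal mouse reference RNA in the green dye. The model rests on enzyme injury of the wall in healthy young males, and RNA came from the whole segment with all of its cells.

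Mitochondrial ribosomes translate the few proteins encoded by mitochondrial DNA, all of them subunits of the oxidative phosphorylation (OXPHOS) complexes. Their ribosomal RNAs come from the mitochondrial genome, while every one of their proteins is encoded in the nucleus, made in the cytosol and imported. The small subunit holds the messenger RNA and reads the code. The large subunit joins the amino acids and, in mammals, is bound to the inner membrane into which the products are inserted. Many of these proteins have a counterpart in bacteria and others are found in mitochondria only.

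Values are log2 of aortic over reference signal for the brightest probe of a gene, after normalization within each array. PPE and sham arrays were compared with limma, and a gene was called at a Benjamini-Hochberg adjusted p under 0.01 over all names tested. Arrays differed in quality, with 37.6% of spots above background in red on sham array 5 and 65.8% on PPE array 1. In this bulk tissue, fewer cells of a type and less RNA per cell cannot be told apart. The tissue's defining smooth muscle genes were above background on all arrays other than Lmod1, which was on 4 of the 5 PPE arrays, and their mean fell from 3.68 ± 0.47 in sham to 1.86 ± 0.48 in PPE (log2 ratio, SD, n = 5 each), with 8 of 10 called lower. Macrophage markers rose (6 of 10 called), their mean going from 0.89 to 1.44 over sham arrays and from 2.59 to 3.67 over PPE arrays. Of the neutrophil markers 8 of 9 rose, and Mmp8 and Ngp were not above background on any sham array.

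Transcripts of the mitochondrial ribosome were slightly lower in PPE aorta by the main normalization, and this family-wide decrease was not seen under another scaling. The median log2 difference of the 76 members (PPE minus sham) was -0.25, against 0.02 for all names tested, and 66 of 76 members were below 0. Of the members 16 fell, 1 rose (Mrpl52) and 59 were not called. Over all names the background was 9.96% called lower and 13.8% called higher. The 5 PPE arrays lay wholly below the 5 sham arrays for 27 members and wholly above them for 1, where all names gave 10.5% below and 14.9% above.

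**Figure D1:**
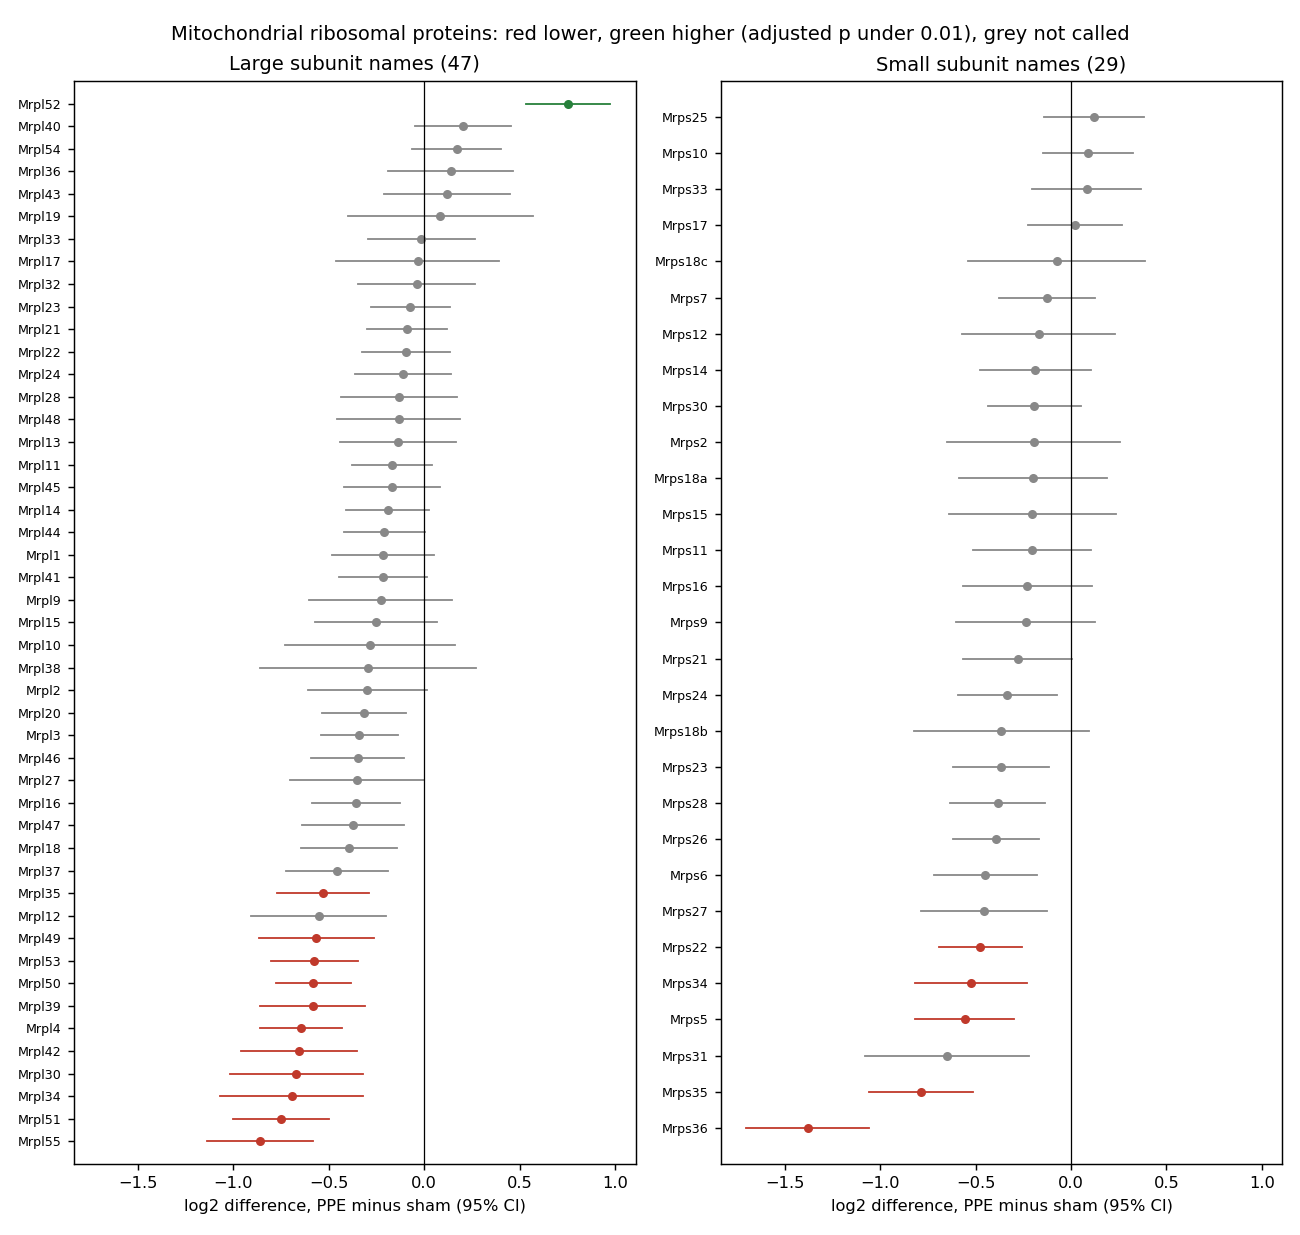
Log2 difference between 5 PPE and 5 sham arrays (horizontal axis, point) with its 95% confidence interval (line) for each of the 47 large and 29 small subunit names, ordered by size. Most points lie left of 0, Mrps36 stands lowest at -1.38 and Mrpl52 highest at 0.75, and 43 of the 76 intervals cross 0.

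The mean over all members was -0.14 on sham array 1, -0.33 on sham 2, -0.21 on sham 3, -0.12 on sham 4 and -0.33 on sham 5 (log2 ratio). It was -0.42, -0.52, -0.52, -0.45 and -0.64 on PPE arrays 1 to 5. Every PPE array was below every sham array, with PPE 5 the lowest, and the group means were -0.23 ± 0.10 and -0.51 ± 0.08 (SD, n = 5 each). Within the slides that held both groups the difference was -0.34 on slide 1 (1 sham and 2 PPE arrays) and -0.21 on slide 2 (2 of each). The arrays of slide 1 were scanned on another day than all the others.

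The scaling matters for a shift of this size. The main normalization subtracts from each array a loess curve that varies with brightness, and the members were bright, with a median mean log2 signal of 12.2 against 9.14 for all names. Centring each array on its median instead, with no curve, moved the median difference of all names tested to 0.41 and that of the members to 0.40. With each array centred on the names tested, the median of the members was -0.02 and 40 of 76 were below 0. In that fit 0 members were called lower at an adjusted p under 0.01 in limma, where 4.39% of all names were. Members' means then ran from -1.37 to -0.50 over sham (SD 0.35) and from -1.54 to -0.55 over PPE arrays (SD 0.38), and the groups overlapped. Within each group these means fell in the order of the share of red spots above background. That share went from 62.1% (sham 1) to 37.6% (sham 5) and from 65.8% (PPE 1) to 45.8% (PPE 5). The part of array quality in the overlap was not tested. What follows gives the loess values, and for the members named, the difference under plain median centring relative to the median of all names.

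**Figure D2:**
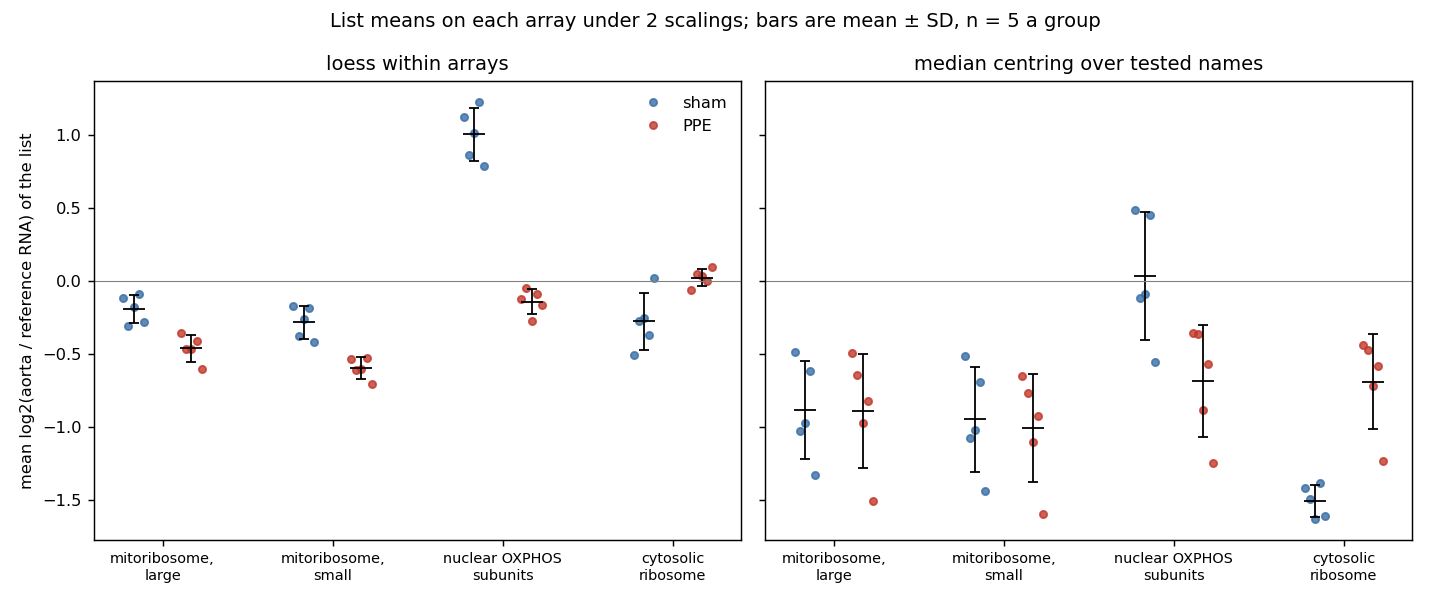
Mean log2 ratio of aortic over reference RNA of 4 gene lists on each array (points; sham blue, PPE red; bars mean ± SD, n = 5) after loess (left) and after centring on the names tested (right). The large and small subunit lists separate the groups on the left and overlap on the right, whereas the cytosolic ribosome list separates them on the right and overlaps on the left.

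The medians of the subunits were close. The median difference was -0.25 for the 47 large subunit names, of which 11 fell and 1 rose, and -0.24 for the 29 small subunit names, of which 5 fell and 0 rose. Called lower were 23.4% of the large and 17.2% of the small subunit names, against 9.96% of all names, of which 13.8% were called higher. On each array the mean of the large subunit was above that of the small subunit. The gap was 0.05, 0.07, 0.08, 0.09 and 0.14 on sham arrays 1 to 5 and 0.17, 0.14, 0.14, 0.11 and 0.11 on PPE arrays 1 to 5 (log2). The groups overlapped, at 0.09 ± 0.03 in sham and 0.13 ± 0.03 in PPE (SD, n = 5 each). Since the gap is taken within an array it hardly depends on the scaling, and with centring on the names tested it was 0.06 ± 0.03 and 0.12 ± 0.03, with overlap. Names and places in the particle do not match fully, as Mrps30 and Mrps18a sit in the large subunit of the assembled mammalian ribosome. With them counted there the medians were -0.23 for large and -0.28 for small, and the count of members that fell stayed at 11 and 5. The small subunit names also hold Mrps36 (-1.38), later assigned to another complex, and the gap between the subunits without it was not computed.

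Proteins with a bacterial counterpart and those found in mitochondria only were set apart after the values had been seen, so no test was made. Of 47 with a counterpart, 5 fell and the median was -0.22. Of 29 found in mitochondria only, 11 fell, Mrpl52 rose and the median was -0.39. The same order held within the large subunit (medians -0.23 and -0.32) and within the small subunit (-0.20 and -0.46). Mrps36, the furthest down and later assigned to another complex, was counted among those found in mitochondria only. Over all names 9.96% were called lower and 13.8% higher. These are loess values, and the medians of the 2 classes under median centring were not computed.

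Mrps36 moved most. It was named as a small subunit protein and later assigned to the 2-oxoglutarate dehydrogenase complex of the tricarboxylic acid cycle. Its log2 ratio was 0.62, 0.26, 0.48, 0.66 and 0.05 on sham arrays 1 to 5 and -0.82, -0.90, -1.06, -0.78 and -1.28 on PPE arrays 1 to 5. With loess all sham arrays were above 0 and all PPE arrays below it, where 0 is set by the normalization of each array. Mrps36 fell by 1.38 (SE 0.15, 2.6-fold, limma adjusted p = 2.91e-05), and its other probe fell by 1.06 (SE 0.13). Under median centring the difference was -1.07 relative to all names, and centred on the names tested it missed the threshold (adjusted p = 0.0145). Against the mean of the 76 members on the same array, Mrps36 stood at 0.64 ± 0.16 in sham and -0.46 ± 0.13 in PPE (SD, n = 5 each), with no overlap. The array also names a pseudogene, Mrps36-ps2, which fell by 1.02 (SE 0.16), and signal from near-identical copies may be shared, so the value of either is uncertain.

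Among the other small subunit members 4 fell. Mrps35, a protein of the mitochondrial particle without a bacterial counterpart, went from -0.46, -0.83, -0.53, -0.63 and -0.92 on the sham arrays to -1.38, -1.65, -1.51, -1.23 and -1.52 on the PPE arrays. The groups were well apart, and the difference was -0.79 (SE 0.12, limma adjusted p = 0.000459). Mrps5, whose bacterial counterpart lines the channel by which messenger RNA enters, fell by 0.56 (SE 0.12). Mrps34 and Mrps22, both found in mitochondria only, fell as well, to differences of -0.52 and -0.47. Relative to all names under median centring these 4 were at -0.55, -0.41, -0.20 and -0.26. Mrps31 was as far down as several of them at -0.65, but with SE 0.20 it missed the threshold (adjusted p = 0.0225 in limma), and under median centring it was at -0.39.

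In the large subunit Mrpl55 fell most, by 0.86 (SE 0.13, limma adjusted p = 0.000284). It read 0.71, 0.70, 0.60, 1.05 and 0.61 on the sham arrays and -0.31, -0.16, -0.06, -0.27 and 0.15 on the PPE arrays. Sham 4 stood above the rest of its group and PPE 5 came nearest to sham, without reaching it. Mrpl51 read 0.28, -0.01, 0.01, 0.09 and -0.12 in sham and -0.59, -0.68, -0.69, -0.58 and -0.97 in PPE, and fell by 0.75 (SE 0.11). Both proteins are among those found in mitochondria only. Relative to all names under median centring, Mrpl55 was at -0.54 and Mrpl51 at -0.36.

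Next in order were Mrpl34, Mrpl30, Mrpl42 and Mrpl4, which fell, with differences of -0.69, -0.67, -0.66 and -0.65. Mrpl4 has a bacterial counterpart that lines the tunnel through which the new chain leaves. It was the tightest of these, with 0.53 ± 0.13 in sham and -0.12 ± 0.08 in PPE (SD, n = 5 each; SE of the difference 0.10). The sham arrays of Mrpl34 were widely spread, from -0.18 to 0.65, and its lowest sham array lay only just above its highest PPE array at -0.20. Under median centring the 4 were at -0.41, -0.35, -0.41 and -0.23 relative to all names. For the remaining 5 that fell, Mrpl39, Mrpl50, Mrpl53, Mrpl49 and Mrpl35, the differences ran from -0.58 to -0.53, and under median centring they were at -0.32, -0.34, -0.25, -0.33 and -0.50 relative to all names.

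Calls were not equally secure. Leaving out 1 array at a time, 9 of the 16 members that fell were called in all 10 fits, namely Mrps36, Mrps35, Mrpl55, Mrpl51, Mrpl4, Mrpl42, Mrpl50, Mrpl53 and Mrpl35. Mrpl34 and Mrps34 were called in only 1 of those 10 fits. All of these fits used loess. With each array centred on the names tested 0 members were called lower, where 4.39% of all names were. For Mrpl4, Mrpl39, Mrpl49 and Mrpl50 a second, dimmer probe was not called, with differences of -0.31, -0.06, -0.16 and -0.18, so these probes of 1 gene gave unlike values. Probes of some members not called pointed opposite ways, furthest apart for Mrpl15 at -0.25 (brightest probe) and 0.43, neither called. Relative to all names under median centring the brightest probe of Mrpl15 was at 0.0079.

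**Figure D3:**
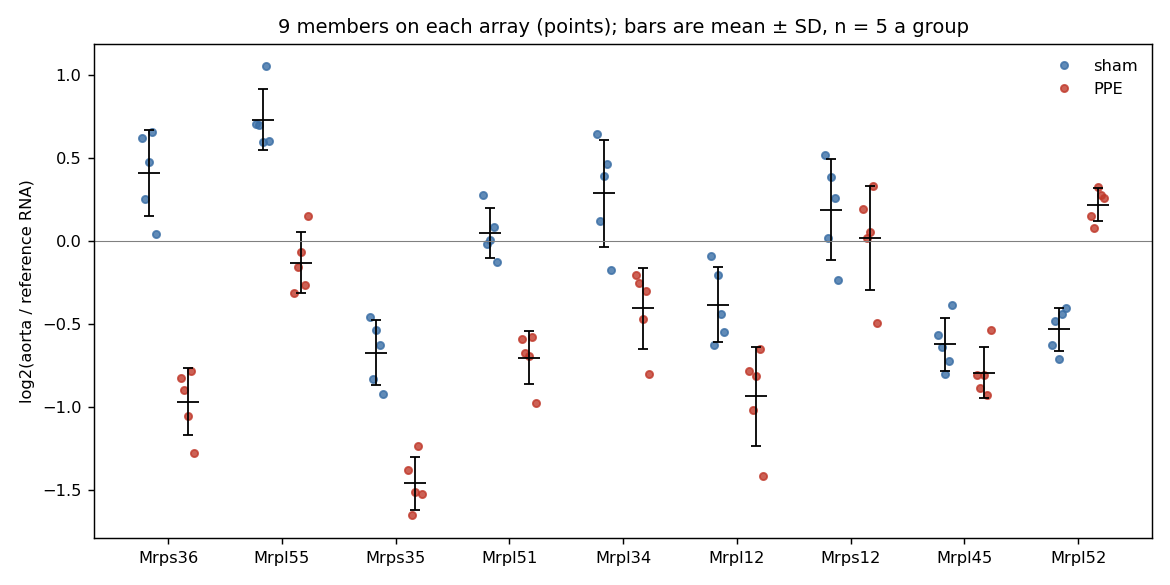
Log2 ratio of aortic over reference RNA (vertical axis) of 9 members on each of 10 arrays (points; sham blue, PPE red), with mean ± SD, n = 5 a group. Mrps36, Mrpl55, Mrps35 and Mrpl51 lie lower in PPE with a gap between the groups, Mrps12 and Mrpl45 overlap, and Mrpl52 runs the other way.

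Mrpl52, a large subunit protein found in mitochondria only, was the one member that rose. Its log2 ratio was -0.63, -0.48, -0.71, -0.44 and -0.40 on the sham arrays and 0.15, 0.08, 0.33, 0.28 and 0.26 on the PPE arrays. With loess, which sets where 0 lies on each array, sham arrays were all below 0 and PPE arrays all above it. The difference was 0.75 (SE 0.10, 1.68-fold, limma adjusted p = 0.000149), and it was 0.74 within slide 1 and 0.90 within slide 2. Mrpl52 was called in all 10 fits without 1 array. Under median centring it was at 1.10 relative to all names and not called, and centred on the names tested it rose by 1.09 (adjusted p = 0.00175). The gene has 1 probe on the array, at chr14:55048507-55048566 of mm9. No other member above 0 was called, the next being Mrpl40 at 0.20 (SE 0.11) and Mrpl54 at 0.17 (SE 0.11), both at 0.46 relative to all names under median centring.

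Members with a well-described role and the Mrps18 group were followed whatever their values. Mrpl12, a protein of the flexible stalk that also binds the mitochondrial RNA polymerase, read -0.09, -0.63, -0.21, -0.44 and -0.55 in sham and -0.78, -1.02, -0.82, -0.65 and -1.41 in PPE. The groups did not overlap, with sham 2 only just above PPE 4, and the difference of -0.55 (SE 0.16) missed the threshold (limma adjusted p = 0.0195) and was -0.20 relative to all names under median centring. Mrps12, at the decoding centre, and Mrpl45, which tethers the large subunit to the membrane, were both at -0.17 (95% intervals -0.57 to 0.23 and -0.42 to 0.08) with overlapping groups. Mrps30 was at -0.19 (SE 0.11). Under median centring Mrps12, Mrpl45 and Mrps30 turned to 0.12, 0.080 and 0.066 relative to all names.

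Mammals carry 3 forms of the S18 protein. Mrps18a was at -0.20 (SE 0.18), Mrps18b at -0.36 (SE 0.21) and Mrps18c at -0.08 (SE 0.21), and none was called. PPE 5 read 0.16 for Mrps18c while its other PPE arrays ran from -0.77 to -0.53, and it read -1.58 for Mrps18b, whose other PPE arrays ran from -0.84 to -0.65. Relative to all names under median centring, Mrps18b was at -0.041, and Mrps18a and Mrps18c turned to 0.082 and 0.19.

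Differences of the members were much smaller than those of the respiratory genes. Of 82 nuclear genes for OXPHOS subunits 72 fell and the median was -1.17. Centred on the names tested, 13 of the 82 fell, where 4.39% of all names were called lower. The median was then -0.74 and the groups overlapped in the mean of the list. With plain median centring 1 fell, where 8 of all 22520 names did, and the median was -0.32, where all names stood at 0.41. With loess the mean of the OXPHOS subunits went from 1.01 ± 0.18 in sham to -0.14 ± 0.09 in PPE (log2 ratio, SD, n = 5 each). The mean of these subunits minus that of the ribosomal members, taken within an array, was 1.26, 1.20, 1.22, 1.35 and 1.12 on sham arrays 1 to 5 and 0.30, 0.47, 0.24, 0.37 and 0.48 on PPE arrays 1 to 5. The groups were far apart. The difference narrowed by 0.86 between the groups with loess, and by 0.70 when arrays were centred on the names tested, again with no overlap. The lists differed in brightness, with a median mean log2 signal of 14.2 for the OXPHOS subunits and 12.2 for the members. The part of brightness in this difference was not tested.

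**Figure D4:**
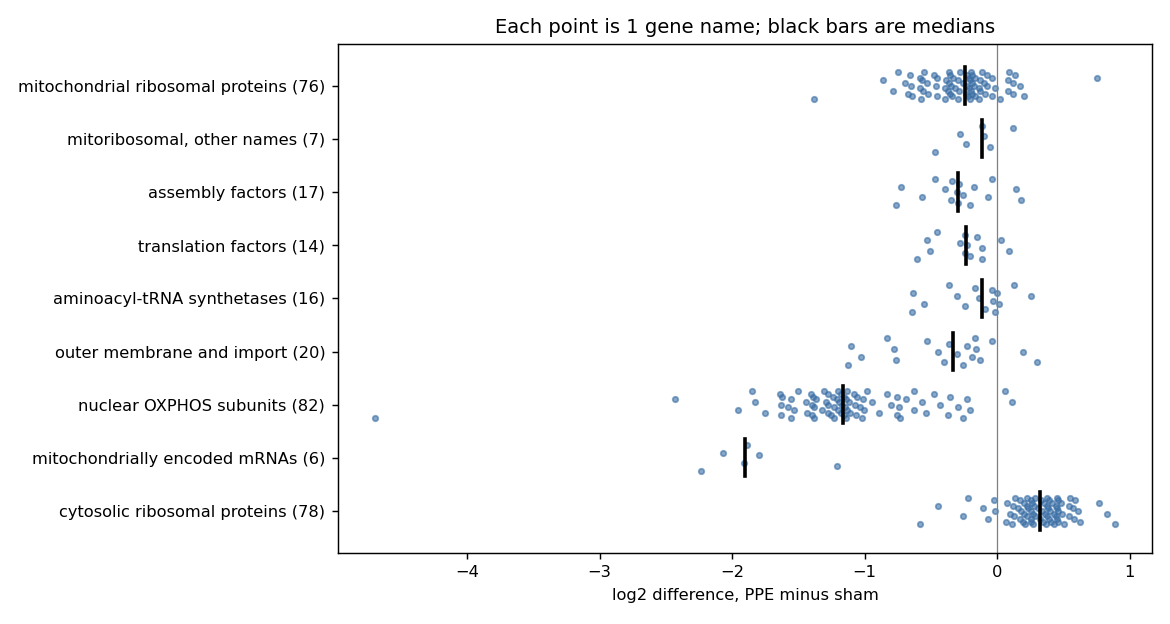
Log2 difference, PPE minus sham, of each gene name (points) in 9 lists, with the median of a list as a black bar and the number of names in brackets. The mitochondrial ribosomal proteins centre on -0.25, the nuclear OXPHOS subunits on -1.17, the mitochondrially encoded messenger RNAs on -1.90 and the cytosolic ribosomal proteins on 0.33.

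Of the messenger RNAs that mitochondrial ribosomes translate, 6 had a name tested on the array, and 5 fell (83.3%, where all names gave 9.96%). COX1, the catalytic subunit of cytochrome c oxidase, went from 2.30 ± 0.24 to 0.50 ± 0.31 (log2 ratio, SD, n = 5 each), a fall by 1.80 (SE 0.17). The complex I subunits ND1, ND3, ND4L and ND5 also fell, with differences of -1.91, -2.24, -2.07 and -1.88. ND6 was at -1.21 (SE 0.39) and was not called. With loess all 6 were thus further below 0 than every ribosomal member other than Mrps36. Their median was -1.90 with loess and -1.49 when centred on the names tested. With plain median centring it was -1.07, where all names stood at 0.41.

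Cytosolic ribosomal proteins, encoded by a separate set of nuclear genes, had a median of 0.33. Of 78 tested, 7 (8.97%) were higher and 0 lower (limma, adjusted p under 0.01), where all names gave 13.8% and 9.96%. The median of the cytosolic proteins was 0.85 when centred on the names tested and 1.27 with plain median centring. The mean of the mitochondrial members minus that of the cytosolic proteins was 0.05 ± 0.28 in sham and -0.54 ± 0.14 in PPE (log2, SD, n = 5 each). Every PPE array was below every sham array in this measure under loess, and also when centred on the names tested, where it went from 0.60 ± 0.26 to -0.24 ± 0.08. The cytosolic proteins were brighter, with a median mean log2 signal of 16.3 against 12.2 for the members, and the part of brightness was not tested.

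Other genes of the translation machinery of mitochondria had medians between -0.29 and -0.12. The 7 ribosomal proteins with other names had a median of -0.12, and 0 were called in limma, the furthest being Ptcd3 at -0.47 (SE 0.17, adjusted p = 0.0542). Among 17 assembly and ribosomal RNA factors the median was -0.29 and 4 fell: Mtg1, a GTPase of large subunit assembly, by 0.77, Lrpprc, which stabilizes mitochondrial messenger RNAs, by 0.73, and Ftsj2 and Rnmtl1, methyltransferases of the large ribosomal RNA, by 0.57 and 0.47. Of 14 translation factors, with a median of -0.23, 2 fell, the elongation factors Gfm1 by 0.61 and Guf1 by 0.50. Among 16 mitochondrial aminoacyl-tRNA synthetases the median was -0.12 and 2 fell, Fars2 by 0.63 and Pars2 by 0.55. Called lower were 23.5% of the assembly factors, 14.3% of the translation factors and 12.5% of the synthetases, against 9.96% of all names. These are loess values, and the values of these genes under median centring are not given here.

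Regulators of mitochondrial gene expression were more varied. Of 16 tested, 3 fell and 1 rose (18.8% and 6.25%, where all names gave 9.96% and 13.8%), with a median of -0.14. Ppargc1a, the coactivator best known for driving mitochondrial biogenesis, went from 1.31 ± 0.65 to -0.94 ± 0.41 (log2 ratio, SD, n = 5 each) and fell by 2.25 (SE 0.30, limma adjusted p = 0.000137). Its relative Ppargc1b fell by 0.86 and Tfb2m, a factor of mitochondrial transcription initiation, by 0.74. Myc rose by 1.10 (SE 0.21). Of 20 genes of the outer membrane and protein import 6 fell and the median was -0.33.

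Markers of mitochondria-rich cells were read on the same arrays. Of 10 brown fat genes 9 fell, and their mean ran from 3.57 to 4.58 over sham arrays and from 0.71 to 1.89 over PPE arrays, with Elovl3 not above background on any PPE array. Skeletal and cardiac muscle genes ran from 1.90 to 4.55 in sham and from 0.81 to 3.43 in PPE, with overlap of the groups and 1 of 8 called lower. Cell cycle genes rose (9 of 11 tested), with means from -4.24 to -2.95 in sham and from -2.37 to -1.70 in PPE. The part of these cells in the values of the ribosomal members was not tested.

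Features of the members that the choice by name did not use were also read, without values for all names beside them. They lay on 17 chromosomes, with the highest counts on chromosomes 11 (10 members), 17 (8) and 6 (7). Their loess log2 ratios to the reference were mostly below 0, with group means from -1.12 to 0.73 in sham and from -1.46 to 0.49 in PPE. The mean was below 0 for 49 of 76 members in sham and for 66 in PPE. The place of 0 is set by the normalization, and these counts under median centring were not computed. The spread between mice, as the median SD over members, was 0.18 in each group.

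Promoter windows of 300 bases, from 250 before to 50 after a gene's start, were found by symbol for 67 members in RefSeq (GRCm38.p6). The ETS motif CCGGAAG stood, on either strand, in 23 of them (34.3%), against 9.12% of windows over 27025 genes. The NRF1 motif GCGCANGCG was in 15 (22.4%, against 6.47%), the YY1 motif AAGATGGC in 12 (17.9%, against 2.88%) and the E-box CACGTG in 5 (7.46%, against 7.24%). At least 1 of the 4 motifs was in 43 windows. Among the 13 matched members that fell, 4 held the ETS, 2 the NRF1 and 3 the YY1 motif, and among the 53 not called, 18, 13 and 9 did. A match describes letters only and is no proof of a bound site.

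The windows of the 3 members that fell most among those matched, and of the member that rose, are printed 5′ to 3′ on the strand of the gene, with matches to these motifs in capitals. Mrps36 and Mrpl55 held none, Mrpl51 held 1 match to the ETS motif and Mrpl52 held 2, both on the opposite strand, where CCGGAAG reads CTTCCGG.
Mrps36 (chr13:100744610-100744909, minus strand): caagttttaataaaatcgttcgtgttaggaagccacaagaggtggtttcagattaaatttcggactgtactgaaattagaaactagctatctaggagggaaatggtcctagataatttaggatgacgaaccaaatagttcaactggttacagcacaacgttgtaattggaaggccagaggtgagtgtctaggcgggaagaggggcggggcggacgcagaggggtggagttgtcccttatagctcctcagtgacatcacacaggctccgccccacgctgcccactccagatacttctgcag
Mrpl55 (chr11:59202236-59202535, plus strand): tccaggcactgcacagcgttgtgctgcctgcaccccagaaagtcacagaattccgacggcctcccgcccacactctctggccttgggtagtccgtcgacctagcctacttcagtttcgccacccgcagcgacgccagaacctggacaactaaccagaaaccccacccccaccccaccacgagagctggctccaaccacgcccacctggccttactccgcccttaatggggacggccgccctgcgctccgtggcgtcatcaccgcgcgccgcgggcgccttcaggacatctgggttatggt
Mrpl51 (chr6:125191950-125192249, plus strand): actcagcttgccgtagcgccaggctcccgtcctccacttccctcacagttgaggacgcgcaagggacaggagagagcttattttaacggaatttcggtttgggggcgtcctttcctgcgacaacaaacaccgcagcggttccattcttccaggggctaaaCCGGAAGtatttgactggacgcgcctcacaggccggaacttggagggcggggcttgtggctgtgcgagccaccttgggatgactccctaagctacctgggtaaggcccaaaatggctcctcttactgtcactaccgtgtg
Mrpl52 (chr14:54426659-54426958, plus strand): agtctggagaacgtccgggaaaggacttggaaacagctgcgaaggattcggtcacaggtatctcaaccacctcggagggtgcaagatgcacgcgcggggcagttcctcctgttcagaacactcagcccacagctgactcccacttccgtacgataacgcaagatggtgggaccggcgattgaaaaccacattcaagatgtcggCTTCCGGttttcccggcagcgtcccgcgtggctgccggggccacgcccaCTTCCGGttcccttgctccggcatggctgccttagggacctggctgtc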

How the data were processed

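Total RNA of 10 infrarenal aortae, 5 sham and 5 PPE, was labelled by the authors (500 ng, Cy5) and hybridized against a universal mouse reference (Cy3) on 2-colour Agilent arrays, without dye swaps. Per the study's methods, some arrays were left out by the authors for poor hybridization or as outliers, which ones is not given in the sources used here. Spots were read by the authors with Agilent Feature Extraction 10.7.3.1, and each deposited signal or local background is a linear-scale intensity. Agilent's LogRatio, also deposited, is log10 of red over green, and the authors' series matrix holds log2 of processed red over processed green on 100% of spots (tolerance 1e-04). Both were used as alternatives.

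In R 4.3.3, limma 3.58.1 was run on mean signals and median backgrounds with normexp (offset 50) and loess within arrays, controls and outlier spots having weight 0. Repeat spots of 1 probe were averaged. Probes were tested if above background in red on at least 5 of 10 arrays, and the brightest tested probe stood for its gene (22520 names). lmFit and eBayes, two-sided, took both groups without covariates. A threshold of 0.01 follows the study's false discovery rate, with limma in place of its own permutation method. The number of arrays limits the precision, and each array is 1 mouse. The fit was tested on simulated log ratios with planted changes larger than that of any member. That test covers neither changes of the members' size nor the normalization. Probe positions are those of the files (mm9). Groups came from the labels.

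Members and lists were chosen with earlier results of these data known. Members named were the 6 largest called changes in each direction per subunit, any above background in 1 group only, any whose probes conflicted in call, and 8 chosen for their roles (Mrpl12, Mrps12, Mrpl45, Mrps18a, Mrps18b, Mrps18c, Mrps30, Mrps36). Others named were picked after their values were seen. Lists of the B cell (0 of 5 called in limma), the endothelium (0 of 8) and the fat cell (2 of 8 lower), the T cell (5 of 8 higher) and fibroblasts (4 of 8 higher) were also run. Alternatives changed the normalization, offset, filter, probe rule, threshold, blocks or arrays 1 at a time.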

Additional observations from a re-analysis of the deposited data

Results flagged for a closer look

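In 46 groups of 5 arrays (members named and the means of the members), 3 had an array standing apart from the other 4, as judged by its gap over the group's whole range against Dixon's critical value of 0.71, and chance gives about 5%. Sham 4 was high for Mrpl55 (1.05, the next sham array being 0.71, gap over range 0.755). PPE 5 was low for Mrps18b (-1.58, next -0.84, gap over range 0.798) and high for Mrps18c (0.16, next -0.53, gap over range 0.745). Without sham 5 and PPE 5, the arrays with the fewest spots above background in their groups, 18 members fell and the median of the members was -0.24. Over all names 10.6% were called lower in that fit.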

How the results depend on the processing

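Loess against median centring was the choice that mattered. With median centring 0 members were called lower and 0 higher in limma (large subunit 0 and small subunit 0 lower; over all names 408 rose and 8 fell), and the medians were 0.40 for all members, 0.40 for the large and 0.41 for the small subunit, where all names stood at 0.41. Centring on the names tested, added after the data were seen, gave 0 lower in all, 0 in the large and 0 in the small subunit, with medians of -0.017, -0.021 and -0.014, while Mrpl52 was called higher. Over all names 2261 rose and 989 fell (4.39%) in that fit. The brightness trend of an array is what the 2 methods treat differently, and which is nearer the truth was not tested. Relative to the median of all names under median centring, Mrps12 (0.12), Mrpl45 (0.080), Mrps18a (0.082), Mrps18c (0.19) and Mrps30 (0.066) turned positive, as they did when centred on the names tested (0.11, 0.067, 0.069, 0.18 and 0.053), none of them called.

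An adjusted p under 0.05 gave 31 members lower, and the share of all names at that threshold was not computed. Agilent's LogRatio and the series matrix each gave 24 members lower, 17 of them in the large subunit, where 13.7% of all names were lower. The median of the large minus that of the small subunit, -0.017, became 0.051 with the mean of a gene's probes, 0.025 without sham 5 and PPE 5, and 0.051 with Mrps30 and Mrps18a counted as large. Leaving out 1 array at a time gave 9 (without PPE 3) to 18 (without sham 5) members lower, 10 without sham 1, 7 to 11 in the large and 2 to 7 in the small subunit, 1 higher throughout, and medians of -0.31 to -0.21 for all members, -0.30 to -0.21 for the large and -0.32 to -0.20 for the small subunit, with large minus small from -0.036 to 0.052. Over all names these fits called 7.79% (without sham 4) to 10.4% (without sham 5) lower. Mrps18c ran from -0.23 (without PPE 5) to 0.061 (without sham 5) in these fits and was at 0.00069 without PPE 4. Without sham 1 or 4 or PPE 3, 7 large subunit members fell, and small subunit members that fell were 3 without sham 1 or 2 and 2 without PPE 3.

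Replicate numbers were shared between the groups, but same-numbered arrays did not deviate together (correlations 0.29, -0.30, 0.16, -0.14 and 0.52), so they were not taken as pairs. With the replicate block 16 members fell and 1 rose, 15 of the 16 being the same genes, and the medians stood at -0.25 for all members, -0.25 for the large and -0.24 for the small subunit. Over all names 10.1% were called lower with the replicate block and 10.3% with the slide as a block. The scan day as a block, added after the data were seen, gave 18 members lower and 1 higher. The median of the members was then -0.27, and 11.6% of all names were called lower. With the slide as a block 16 members fell (14 the same) and Mrpl30 (adjusted p = 0.0153) and Mrpl49 (0.0112) lost their calls. Mrpl34 (0.0113) and Mrps34 (0.0105) lost theirs with no filter, and Mrpl12 was called on Agilent's LogRatio (0.00297).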
